A study of Mus musculus with 4 samples.

Results

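The 10 genes described here encode the shelterin complex and other factors that maintain telomeres: Terf1, Terf2, Pot1a, Pot1b, Terf2ip, Tinf2, Acd, Tert, Rtel1 and Ctc1. They were taken by symbol, and all 10 were found among the 32285 genes counted. Single-nucleus RNA-Seq had been performed on whole lungs of 2 WT mice (strain C57/BL6J) and 2 VEcad-TRF2DN-Tg mice, here called Tg, which express a dominant-negative TRF2 in endothelial cells (ECs) under the vascular endothelial cadherin promoter. The labels give an age of 8 to 9 weeks for all 4 mice, and by the study's methods the animals were male and all 4 had been kept under chronic hypoxia (10% oxygen for 3 weeks), so the WT mice carry the exposure too. The transgene itself was not among the genes counted, and whether any of its reads were assigned to mouse Terf2 was not tested.

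Shelterin coats the TTAGGG repeats at chromosome ends and keeps the DNA damage machinery from reading them as breaks. TRF1 and TRF2 bind the double-stranded repeats, and POT1 binds the single-stranded overhang. TIN2 and TPP1 join these proteins to each other, and RAP1 is a partner of TRF2. Telomerase extends the repeats, RTEL1 unwinds them so that they can be copied, and the CST complex, which holds CTC1, fills in the complementary strand. A TRF2 that lacks its DNA-binding domain displaces the mouse's own TRF2 from telomeres and triggers a damage response, which is how the Tg mice model premature ageing of the endothelium.

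Barcodes with at least 1500 UMIs (25269 to 44000 per mouse) were scored for marker genes, and 4276, 5153, 9641 and 10596 of them in WT 1, WT 2, Tg 1 and Tg 2 received 1 of 15 class names, none of whose markers is among the 10 genes. Of these, 585, 583, 1521 and 1739 were blood EC-like nuclei, in which all 15 EC markers were detected in every mouse at 6.43 to 7.02 times their summed level in droplets without a nucleus. For the latter, barcodes with 300 to 800 UMIs were summed (2732 to 18387 per mouse), which are called empty droplets from here on, and whether some of them held damaged nuclei was not tested. Between 62 and 167 blood EC nuclei per mouse lay near the score limit. In the other 13 classes compared, the summed markers of the class stood at 1.97 to 64.5 times their level in empty droplets. All nuclei were named by these same markers against these same droplets, so such an excess follows from the rule. It is not separate evidence for the class names. The 4 libraries shared 0.697 to 1.3% of their barcodes pairwise. The genotypes stood apart in ways that are not specific to these genes: surfactant and secretoglobin genes made up 2.16 and 2.16% of the UMIs of empty droplets in WT 1 and WT 2 against 16.0 and 6.66% in Tg 1 and Tg 2. From the same genes, free RNA was estimated at 45.3, 44.8, 32.8 and 34.7% of the UMIs of blood EC nuclei in that order. The median mitochondrial share of barcodes with at least 1500 UMIs was 0.0707 and 0.137% in WT and 0.319 and 0.387% in Tg, and 15.9 and 13.4% of these barcodes were named in WT against 38.2 and 24.1% in Tg. The part of these differences in the results was not tested. Smooth muscle-like nuclei were under 20 in each mouse, which left 14 classes.

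The 10 genes lie on 8 chromosomes and differ widely in size, which matters in nuclei because reads on introns were counted. Pot1a (chr6:25743737-25809246) and Pot1b (chr17:55651951-55712628) span 65.5 and 60.7 kb, with 13.2 and 8.68% of the span in exons (GRCm38, GENCODE annotation). Acd (chr8:105695860-105701102) spans 5.24 kb and Tinf2 (chr14:55674689-55681820) 7.13 kb, and 69.1 and 69.2% of them is exon. Acd overlaps Carmil2 by 2.33 kb and Tinf2 overlaps Gmpr2 by 4.51 kb, in both cases on the opposite strand and with both genes counted, so that their reads can be told apart only by strand. Pot1a and Pot1b are paralogs, and reads from stretches that the genes share cannot be assigned with certainty. In CPM per kb of span, the mean level in blood EC nuclei was highest for Terf2ip (2.09 ± 0.145, SD, n = 4), Terf2 (1.84 ± 0.107) and Terf1 (1.78 ± 0.114) and lowest for Rtel1 (0.227 ± 0.0556) and Tert (0.121 ± 0.0506). Tinf2, Acd, Pot1b, Ctc1 and Pot1a lay in between, at 1.13 to 0.536 CPM per kb. Without division by span, the means were 68.6 CPM for Terf1, 49.95 CPM for Terf2 and 19.1 CPM for Terf2ip. That of Terf2ip lay below its mean of 26.1 CPM in empty droplets.

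The promoters of the Pot1 paralogs are shown because Pot1b had the most calls between cell classes of the 10 genes, and both paralogs were called lower in ciliated and alveolar type 2 nuclei. The stretches upstream of the first start site in RefSeq (GRCm38.p6) were read on the minus strand, as far as they lie outside the annotated gene, at chr6:25809247-25809468 and chr17:55712637-55712886. Capitals mark the motifs found.
Pot1a: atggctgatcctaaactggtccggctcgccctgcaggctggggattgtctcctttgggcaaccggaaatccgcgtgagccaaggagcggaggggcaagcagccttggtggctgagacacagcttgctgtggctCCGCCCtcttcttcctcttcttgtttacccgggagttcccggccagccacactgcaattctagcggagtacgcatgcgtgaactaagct
Pot1b: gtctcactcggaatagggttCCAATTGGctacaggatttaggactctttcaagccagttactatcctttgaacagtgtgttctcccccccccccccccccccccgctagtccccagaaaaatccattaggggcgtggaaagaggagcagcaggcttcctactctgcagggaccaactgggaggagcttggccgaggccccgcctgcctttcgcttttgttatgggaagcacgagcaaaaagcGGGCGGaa
The motifs searched on both strands were the GC box (GGGCGG), the CCAAT box (CCAAT), the cyclic AMP response element (TGACGTCA) and the E-box (CACGTG). Pot1a held 1 GC box, read as CCGCCC, 117 bases before the start, and Pot1b held 1 GC box 8 bases before it. Pot1b also held CCAAT at 230 and ATTGG at 227 bases before the start, which overlap and form the capitals CCAATTGG. Among 27025 promoters of 250 bases, 32.9% held a GC box and 34.5% a CCAAT box, while 1.62% held the cyclic AMP response element and 6.05% the E-box, which are not in these windows.

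To see whether the endogenous telomere genes differed in the cells that carry the transgene, UMIs were summed over the blood EC nuclei of each mouse. None of the 10 genes passed an adjusted p of 0.05 in edgeR's quasi-likelihood test, where 6.62% of 13959 genes tested did (924 genes, 841 higher and 83 lower in Tg). Of the 10, only Acd had an unadjusted p under 0.05, and DESeq2 called 0 as well. The median log2 fold change of the 10 was -0.07, against 0.02 for all genes tested. On simulated counts of the same design, the test recovered 89.0% of genes changed 4-fold but 9.0% of genes changed 2-fold. Most changes of 2-fold or less would therefore be missed by this test. The genes changed there all lay above a set limit on mean count. Tert, with 42 UMIs over the 4 mice, lay below it and Acd, with 87, just above, so these rates do not cover Tert.

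Among the DNA-binding subunits, Terf2, the gene whose product the transgene antagonises, stood at 49.6 and 51.5 CPM in blood EC nuclei of WT 1 and WT 2 and at 46.0 and 52.7 CPM in Tg 1 and Tg 2. The genotypes overlapped, and the log2 fold change was -0.05 (95% interval -0.49 to 0.39, adjusted p = 0.884). Terf1, the other double-strand binder, was at 73.0 and 71.3 CPM in WT and at 63.6 and 66.3 CPM in Tg. Both Tg mice lay below both WT mice, by less than the test could call (-0.17, -0.58 to 0.24, adjusted p = 0.556). Pot1a was at 34.3 and 40.9 CPM in WT and 27.4 and 37.8 CPM in Tg, and Pot1b at 42.5 and 55.9 CPM in WT and 50.6 and 49.2 CPM in Tg. Both overlapped, with log2 fold changes of -0.23 (-0.77 to 0.32) for Pot1a and -0.0011 (-0.48 to 0.48) for Pot1b.

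The genes of RAP1 and of the bridging subunits had fewer UMIs, and their intervals were wider than that of Terf1. Terf2ip, which encodes the TRF2 partner RAP1, was at 18.5 and 21.1 CPM in WT and 18.2 and 18.5 CPM in Tg, and Tinf2, which encodes TIN2, at 7.63 and 7.29 CPM in WT and 10.3 and 7.02 CPM in Tg. Terf2ip was lower in both Tg mice, but WT 1 and Tg 2 were equal to 3 digits, and Tinf2 overlapped. Neither was called, and their intervals ran from -0.69 to 0.44 and from -0.73 to 1.11.

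Acd, which encodes TPP1, the subunit that recruits telomerase, was the member with the largest difference. It had 2 and 7 UMIs in the blood EC nuclei of WT 1 and WT 2 and 39 UMIs in those of each Tg mouse, or 1.09, 2.84, 8.89 and 6.23 CPM. Both Tg mice were above both WT mice, and the log2 fold change was 1.84 (SE 0.554, 95% interval 0.54 to 3.14) with an adjusted p of 0.0941. Acd entered this test only through its higher level in Tg, as both WT mice lay below the limit of the filter on low counts. It passed the threshold with WT 2 left out (2.69, adjusted p = 0.0207) and where low genes were not filtered out (1.86, adjusted p = 0.011), and not under the other alternatives, where adjusted p ran from 0.0561 to 0.544. The 0.0561 came from the sum of all barcodes of a library, not from blood EC nuclei alone. Most Acd UMIs came from general capillary-like nuclei, with 2 and 4 in WT and 27 and 26 in Tg. Those nuclei also held most blood EC UMIs of all genes. In WT 1, WT 2, Tg 1 and Tg 2 these were 1051244 of 1834453, 1617343 of 2467665, 2690643 of 4386769 and 4328846 of 6263967. In blood EC nuclei given no capillary, arterial or venous name Acd was at 0 and 4.41 CPM in WT and 8.61 and 9.53 CPM in Tg. In the empty droplets Acd was at 1.44 and 3.78 CPM in WT and at 9.37 and 10.3 CPM in Tg, so that both Tg mice were above both WT mice in RNA outside nuclei too.

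**Figure D1:**
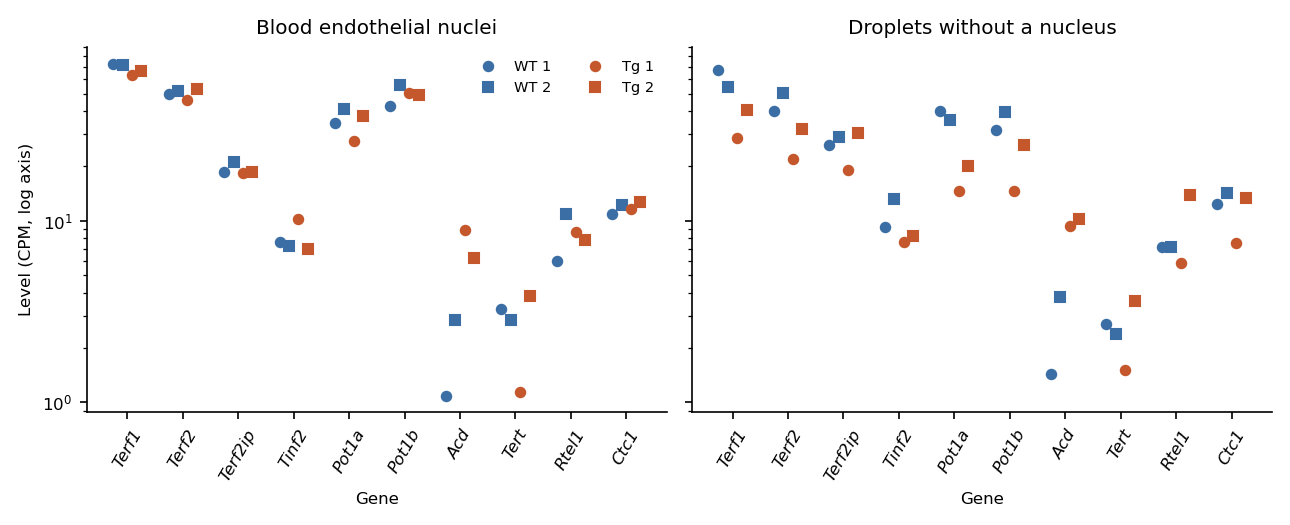
Level of each of the 10 genes in CPM on a log axis, in blood EC nuclei (left) and in droplets without a nucleus (right), with 1 point per mouse. Acd is the gene whose Tg mice lie farthest above the WT mice in both panels, while Terf2 overlaps in nuclei.

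Telomerase and its helpers did not separate the genotypes in blood EC nuclei. Tert, the catalytic subunit, was represented by 6, 7, 5 and 24 UMIs in WT 1, WT 2, Tg 1 and Tg 2, or 3.27, 2.84, 1.14 and 3.83 CPM, and its interval (-1.82 to 1.34) covers more than a 2-fold change in either direction. The helicase gene Rtel1 was at 6.0 and 10.9 CPM in WT and 8.66 and 7.82 CPM in Tg, and Ctc1 at 10.9 and 12.2 CPM in WT and 11.6 and 12.6 CPM in Tg. Both overlapped, with log2 fold changes of -0.08 and 0.05. Counted over all genes with a mean of at least 1 CPM in blood EC nuclei, 58.9% had both Tg mice on 1 side of both WT mice, and among the 10 genes 3 did (Terf1 and Terf2ip below, Acd above).

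The genotypes also differed in the share of UMIs on genes of short and long span. Genes under 10 kb held 11.6 and 12.0% of the UMIs of blood EC nuclei in WT and 26.5 and 19.1% in Tg, and in empty droplets 18.0 and 20.8% in WT and 50.5 and 37.3% in Tg. The median log2 fold change in blood EC nuclei was 0.66 over the 3099 genes under 10 kb, of which 16.3% were called higher, 0.08 over those of 10 to 50 kb and -0.31 over those of 50 kb or more. Acd, Tinf2 and Terf2ip belong to the first group and Pot1a and Pot1b to the last. In log2 fold change Acd lay above the median of its group, and Tinf2 and Terf2ip lay below it. Pot1a and Pot1b both lay above the median of theirs. The part of gene span and free RNA in the level of Acd was not tested, and after subtraction of the empty-droplet profile Acd was too low to pass the filter.

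**Figure D2:**
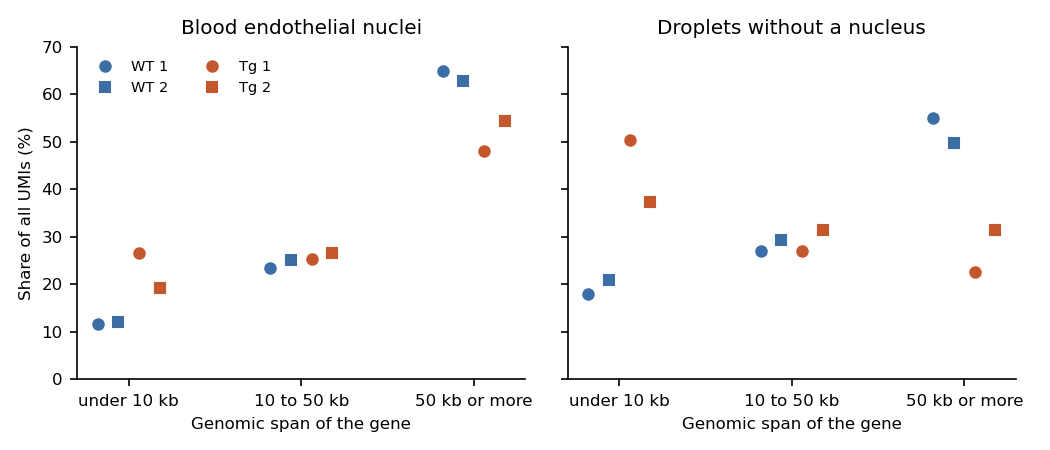
Share of UMIs (%) that fell on genes of 3 classes of genomic span, in blood EC nuclei (left) and in droplets without a nucleus (right), with 1 point per mouse. Genes under 10 kb hold 26.5 and 19.1% of the UMIs of blood EC nuclei in Tg 1 and Tg 2, above the 11.6 and 12.0% of WT 1 and WT 2.

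In the empty droplets themselves, edgeR called 25.6% of 15180 genes between the genotypes, and 2 of the 10 telomere genes. Acd was higher in Tg (log2 fold change 2.13, adjusted p = 0.0286). Pot1a was lower, at 40.3 and 35.7 CPM in WT and 14.5 and 20.01 CPM in Tg (-0.92, adjusted p = 0.0393). The call of Acd was lost without Tg 1 (2.04, adjusted p = 0.236) and without Tg 2 (2.19, adjusted p = 0.0896), and that of Pot1a without Tg 1 (-0.83, adjusted p = 0.245), Tg 2 (-1.01, adjusted p = 0.1) and WT 1 (-0.84, adjusted p = 0.0916). When all barcodes of a library were summed without classes, 9.35% of 21795 genes were called and none of the 10, with 2 at an unadjusted p under 0.05, and Acd had a log2 fold change of 1.18 (adjusted p = 0.0561) and Pot1a of -0.55 (adjusted p = 0.127). In such sums a change in the makeup of the nuclei and a change of RNA per nucleus cannot be told apart.

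**Figure D3:**
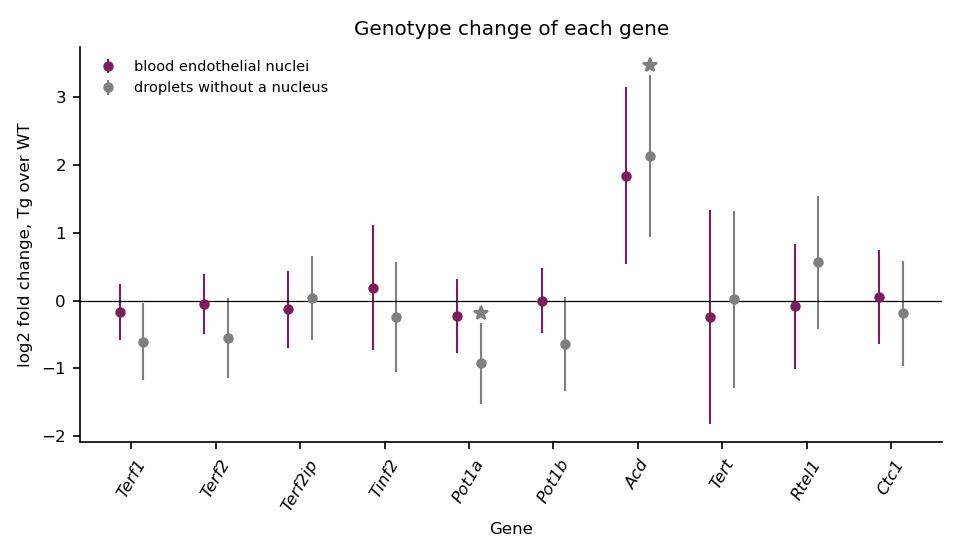
Log2 fold change (Tg over WT) of each of the 10 genes with its 95% interval from edgeR, in blood EC nuclei and in droplets without a nucleus. Stars mark an adjusted p under 0.05, which only Acd (2.13) and Pot1a (-0.92) reached, both in the droplets.

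The other 13 classes, among which only lymphatic ECs are known to use the promoter of the transgene, were compared in the same way. Across them 89 tests of the 10 genes could be made, and none was called by edgeR or DESeq2, where edgeR called 5.84% of 129700 tests over all genes. In 3 tests the gene had an unadjusted p under 0.05: Acd in alveolar type 1 nuclei (log2 fold change 1.63, adjusted p = 0.0912), Terf1 in alveolar type 2 nuclei (-0.41, adjusted p = 0.109) and Pot1a in pericyte-like nuclei (-1.02, adjusted p = 0.261). In alveolar type 1 nuclei too, Acd passed the filter on low counts only through the Tg mice. By level alone, both Tg mice were above both WT mice for Acd in 8 of 14 classes and for Tinf2 in 6, where 28.0% of all genes and classes showed that order. Both Tg mice were below both WT mice for Terf1 in 8 of 14 classes and for Terf2 and Pot1a in 5 each, against 21.7% over all genes and classes. The other genes showed either order in 4 classes at most. The classes of a mouse share 1 library and its free RNA, so these are not independent observations.

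Whether the change in blood EC nuclei differed from that in other nuclei was tested as the interaction term of genotype with class, with lymphatic ECs left out. It called 0.109% of 17409 genes (19 genes) and 0 of the 10, none of which had an unadjusted p under 0.05 in edgeR. No other tool was run for this test, which on simulated counts recovered 73.0% of genes changed 2-fold. Those genes too lay above the limit on mean count in blood EC nuclei, which Tert did not reach. The difference was 0.81 for Acd (95% interval -0.41 to 2.02), -0.53 for Tert (-1.91 to 0.85), 0.36 for Pot1b (-0.04 to 0.76) and 0.20 for Terf2 (-0.14 to 0.54). For this test the UMIs of the other classes were summed per mouse, and their makeup differed between genotypes. In WT 1, WT 2, Tg 1 and Tg 2 there were 1129, 999, 3280 and 2469 alveolar type 2 nuclei. Alveolar macrophage nuclei numbered 498, 332, 187 and 91. A change in this makeup and a change of RNA per nucleus cannot be told apart in such sums.

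The levels of the 10 genes were also compared between cell classes, in a fit that recovered 95.5% of 2-fold changes on simulated counts for blood EC nuclei, so that its calls cannot be set against those between genotypes. Each class was compared with the mean of the other 13 over all 4 mice, and 17 of 112 tests of the members were called (9 higher, 8 lower, or 15.2%), where 30.6% of 183484 tests over all genes were. Acd and Tert were too low for this fit and were not tested. No member was called in blood EC nuclei, where Terf2 came closest (log2 difference -0.21, adjusted p = 0.0506). Pot1b accounted for 6 of the 17 calls, and these 6 held with any 1 mouse left out.

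Pot1b, whose product limits trimming of the telomeric C-strand, was highest in myeloid nuclei. It was at 63.7, 92.9, 163 and 102 CPM in dendritic-like nuclei of WT 1, WT 2, Tg 1 and Tg 2, and at 119, 82.9, 109 and 95.4 CPM in monocyte and interstitial macrophage-like nuclei. In alveolar macrophage-like nuclei it was at 65.0, 68.2, 65.8 and 82.4 CPM. The differences from the other classes were 0.99, 0.88 and 0.51 on the log2 scale (adjusted p = 6.86e-05, 0.000589 and 0.00048). Only 7 to 31 UMIs per mouse stood behind the dendritic values, and the top pair did not differ beyond the spread between mice.

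The low end of Pot1b was held by 3 of the 4 epithelial classes, without alveolar type 1 nuclei (29.3 to 47.1 CPM, not called). It was at 26.7, 31.5, 23.3 and 31.1 CPM in ciliated nuclei, at 31.6, 39.1, 27.1 and 34.0 CPM in alveolar type 2 nuclei and at 16.8, 40.9, 20.6 and 29.5 CPM in club secretory nuclei. All of these mice lay below the lowest value of Pot1b in monocyte, dendritic and alveolar macrophage nuclei. The log2 differences were -0.79, -0.58 and -0.68 (adjusted p = 1.63e-08, 4.21e-06 and 0.000226), and the levels overlapped between these 3 classes. Blood EC nuclei, at 42.5 to 55.9 CPM, came 8th of 14.

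Pot1a, whose product holds back the ATR damage kinase at chromosome ends, was lowest in ciliated nuclei (22.9, 24.9, 16.5 and 23.0 CPM, log2 difference -0.75, adjusted p = 4.19e-07). It was lower in alveolar type 2 nuclei (-0.36, adjusted p = 0.00533), a call lost without WT 2 (-0.27, adjusted p = 0.0627). In fibroblast-like nuclei it was higher (0.53, adjusted p = 0.0121), a call lost without WT 1 (0.51, adjusted p = 0.0879) and without Tg 1 (0.44, adjusted p = 0.0779). In dendritic and monocyte nuclei, where Pot1b peaked, the values of Pot1a were 8.59 to 64.8 CPM, with log2 differences that were not called. The 2 paralogs, whose promoters are printed above, were therefore both called lower in ciliated and alveolar type 2 nuclei, and Pot1b alone was called higher in the 3 myeloid classes. That this differs between the paralogs was not tested.

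**Figure D4:**
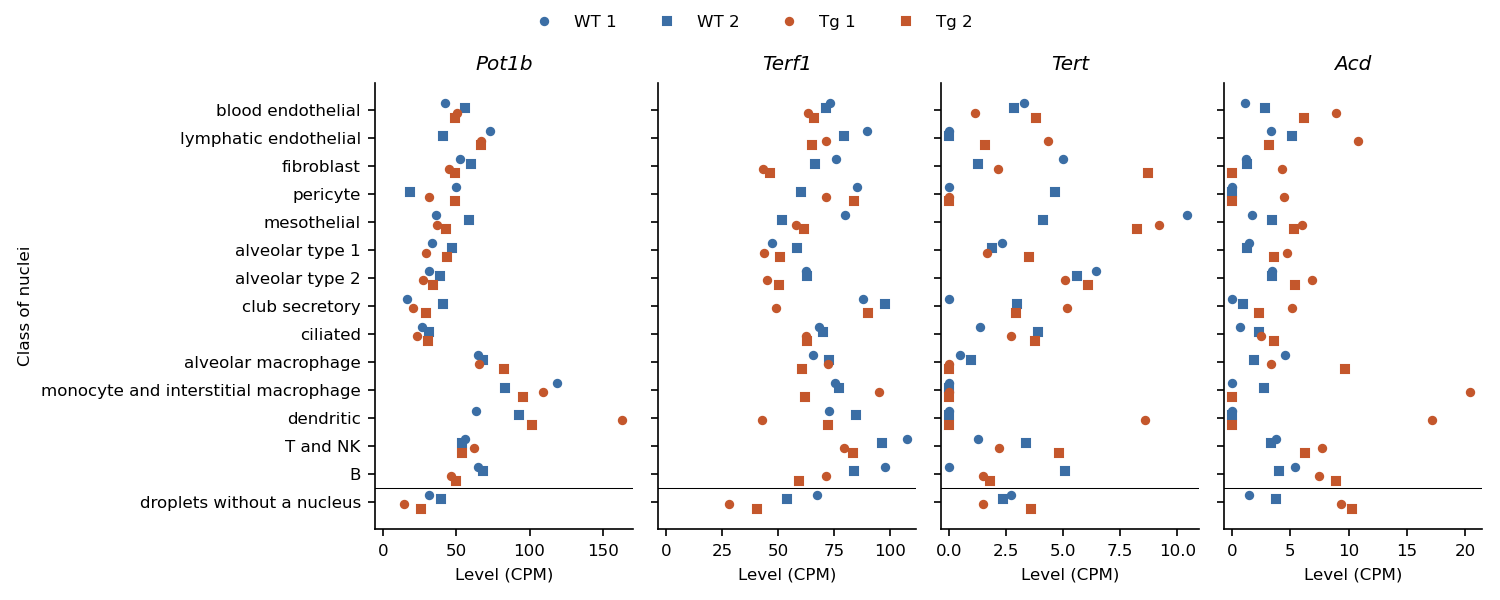
Level in CPM of Pot1b, Terf1, Tert and Acd in 14 classes of nuclei and in droplets without a nucleus (below the line), with 1 point per mouse and a separate linear axis for each gene. Pot1b is highest in dendritic and monocyte nuclei and lowest in club secretory, ciliated and alveolar type 2 nuclei, and Tert is at 0 in all 4 mice only in monocyte and interstitial macrophage nuclei.

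The remaining differences between classes were small. Terf1 was higher in club secretory nuclei (log2 difference 0.43) and in T and NK-like nuclei (0.24) and lower in alveolar type 1 (-0.24) and alveolar type 2 nuclei (-0.29). All 4 calls depended on single mice: that in club nuclei was lost without WT 2 (0.30) or Tg 2 (0.33), that in T and NK nuclei without WT 2 (0.29) or Tg 2 (0.31), that in alveolar type 1 nuclei without WT 1 (-0.13) or Tg 2 (-0.21), and that in alveolar type 2 nuclei without Tg 2 (-0.22). T and NK nuclei held the highest mean level of Terf1 at 91.8 ± 12.8 CPM (SD, n = 4), and alveolar type 1 nuclei the lowest at 50.1 ± 6.33 CPM. Neighbours in the order of the 14 classes did not differ beyond the spread between mice.

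Terf2 was called higher in alveolar type 1 nuclei (0.27 after TMM scaling, although in CPM that class came 8th of 14 at 56.8 ± 13.2) and lower in mesothelial-like nuclei (-0.27), and both calls were lost without WT 2 (0.22 and -0.25) and without Tg 2 (0.22 and -0.16). Its means over the 14 classes ran from 46.1 to 67.2 CPM, and blood EC nuclei came 13th with 49.95 ± 2.89 CPM. Terf2ip was called higher in alveolar type 2 nuclei (0.36 after TMM scaling, adjusted p = 0.00546), which held without each mouse. In CPM that class came 4th of 14 for Terf2ip, at 22.2 ± 2.70, below the mean of 26.1 CPM in empty droplets. Rtel1 was called higher in alveolar type 1 nuclei (0.53 after TMM scaling), which did not hold without WT 2 (0.43). In CPM that class came 6th of 14 for Rtel1, at 9.16 ± 2.05. Tinf2 and Ctc1 had no call in any class, with means of 4.03 to 12.3 and 10.1 to 17.7 CPM.

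**Figure D5:**
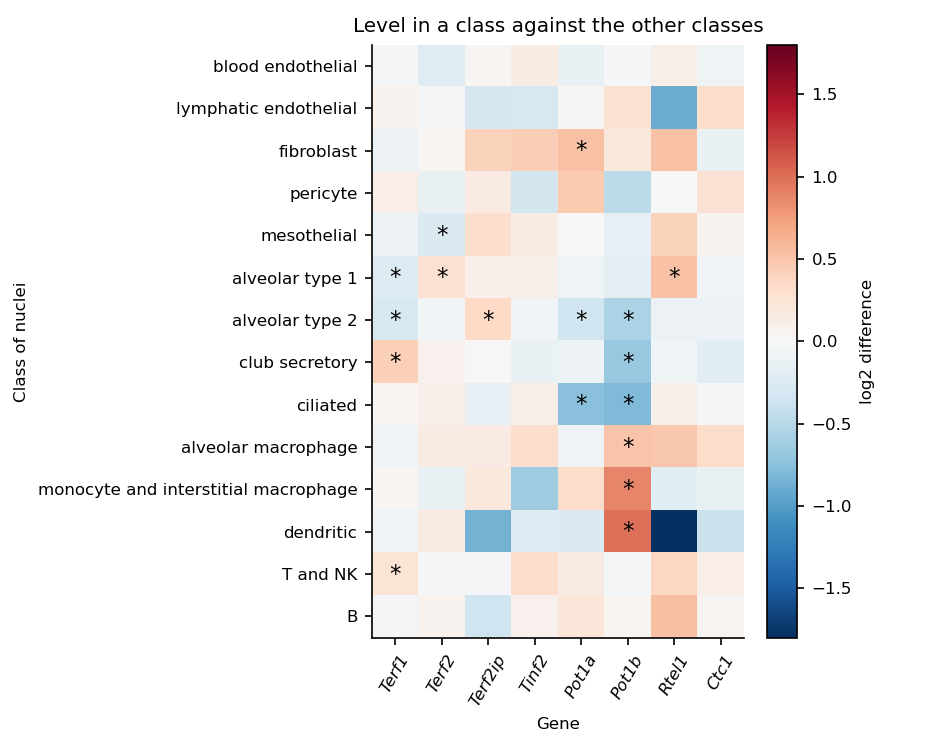
Log2 difference between the level of a gene in 1 class and its mean over the other classes (colour), for the 8 genes that could be tested, with stars at an adjusted p under 0.05 in edgeR. Pot1b carries 6 of the 17 stars, 3 of them in myeloid classes (higher) and 3 in epithelial classes (lower).

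Because free RNA gives UMIs also in nuclei that do not express a gene, each class was set against the empty droplets of the same mice. Over 14 classes, 62 of 140 tests of the 10 genes were called (50 higher and 12 lower in nuclei, or 44.3%), beside 53.3% of 204456 tests over all genes. Terf1 and Terf2 were each higher in nuclei in 13 of 14 classes, Pot1b in 11 and Pot1a in 10, and none of these was lower in any. Terf2ip was lower in nuclei than in empty droplets in 6 classes and Acd in 5, and neither was higher in any. With 1 mouse left out, 38 of 232 repeats of these calls were lost, most often for Pot1a and Terf2ip. In blood EC nuclei the log2 differences were 0.88 for Pot1b, 0.58 for Terf1, 0.51 for Terf2, 0.40 for Pot1a and -0.41 for Terf2ip. The droplet levels differed between genotypes, and the averages do not show this. Pot1a in droplets, at 40.3 and 35.7 CPM in WT and 14.5 and 20.01 CPM in Tg, lay above the nuclei of WT 1, and below those of the other mice. Terf2 in droplets was at 40.1 and 50.5 CPM in WT and at 21.8 and 31.8 CPM in Tg, below the nuclei of each mouse but by little in WT 2. The call of Pot1a was lost without Tg 1 (0.30) or Tg 2 (0.32), and that of Terf2ip without Tg 2 (-0.29).

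Shares of nuclei were compared after each blood EC nucleus had been thinned to 1500 UMIs, since median depth ran from 2367 to 3393 UMIs. At this depth 10.6, 9.39, 8.99 and 9.14% of the nuclei of WT 1, WT 2, Tg 1 and Tg 2 held a UMI of Terf1, above the 9.60, 7.78, 4.16 and 5.90% that droplets of the empty-droplet profile would show. Pot1b was above that background in all 4 mice as well, with 5.90, 7.62, 6.4 and 6.36% against 4.64, 5.77, 2.17 and 3.85%. Terf2ip and Tert were below it in all 4. Tert was found in 0.284, 0.274, 0.124 and 0.508% of nuclei against 0.404, 0.356, 0.226 and 0.537%. Acd was found in 0.225, 0.412, 1.39 and 0.912% against 0.216, 0.565, 1.4 and 1.53%, above it in WT 1 and below it in the other mice. That comparison takes every UMI of a nucleus as free RNA, while the estimated share of free RNA in blood EC nuclei was 32.8 to 45.3%, so a share below it does not show that a gene was not expressed. Before thinning, 19.8, 22.6, 16.2 and 19.8% of the nuclei held a UMI of Terf1. For Acd these shares were 0.342% (95% exact binomial interval 0.0414 to 1.23), 1.03% (0.379 to 2.23), 2.56% (1.83 to 3.49) and 2.19% (1.55 to 2.99), where the intervals cover counting error only. Between genotypes the exact permutation test over mice cannot go below p = 0.333 with 2 against 2, and no share reached less.

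Tert was the rarest of the 10, with 462 UMIs in 14 classes and 42 in blood EC nuclei, but it was not spread evenly. In mesothelial nuclei it had 6, 6, 23 and 37 UMIs in WT 1, WT 2, Tg 1 and Tg 2 (10.4, 4.10, 9.17 and 8.24 CPM), and in alveolar type 2 nuclei 28, 31, 47 and 59 UMIs (6.45, 5.59, 5.07 and 6.1 CPM). Empty droplets of the same mice were at 2.70, 2.38, 1.51 and 3.59 CPM, below both classes in every mouse. These were the 2 classes in which Tert was called above empty droplets, by 1.78 (adjusted p = 7.12e-06) and 1.41 (adjusted p = 3.01e-05) on the log2 scale. Both calls held without WT 1 and without Tg 1, and with WT 2 or Tg 2 left out Tert did not pass the filter. In the main fit Tert passed that filter mainly through mesothelial nuclei, so its call in that class is not independent of the filter.

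At the other end, Tert had 3 UMIs in 1108 alveolar macrophage nuclei and was called below empty droplets (-1.87, adjusted p = 0.0181), which was lost without WT 1 (-1.74, adjusted p = 0.0919). In monocyte and interstitial macrophage nuclei 0 UMIs were found in 178 nuclei, which allows up to 3.7 CPM or 1.69% of nuclei with a UMI, counting error only. A nucleus that expresses Tert can hold no UMI of it at this depth. The empty-droplet level lies within that limit, so absence cannot be stated there.

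Genes with a class pattern like that of a member were taken as those of at least 20 CPM with the highest Pearson correlation of log2(CPM + 1) over the 14 class means, out of 7895 candidates. For Pot1b these were Ifngr2 (r = 0.951), Rap1gds1 (0.933) and Arrb2 (0.923), for Terf1 Phf6 (0.897) and Ubr2, and for Terf2 A930015D03Rik (0.841), Cog4 and Traf3. For Pot1a they were Trak2 (0.883), Rpap2 and Ypel3, and for Terf2ip Jkamp (0.916), Atg13 and Sec23ip. The class means share libraries and depth, and with 14 points and so many candidates high values are common, so these are a description.

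Other genes of telomere biology were taken as 4 lists and counted in the blood EC comparison. Of 11 tested genes of the telomerase particle, 1 was higher in Tg and 0 lower (median log2 fold change 0.52, beside 0.53 for the same list in empty droplets). Of 6 CST partners and primase genes none was called (-0.16), of 21 end-processing and repair genes 1 was higher and 1 lower (-0.17), and of 7 telomere chromatin genes none was called (-0.36), where the median of all genes was 0.02 and 6.62% were called. The genes called were Nhp2, Xrcc6 and Samhd1, and no listed gene was called in the interaction with class.

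Nhp2, a small protein of the telomerase RNA particle, was at 4.91 and 7.29 CPM in WT and 22.8 and 17.6 CPM in Tg (log2 fold change 1.68, adjusted p = 0.037). Xrcc6, which encodes the Ku70 end-binding protein, was at 19.6 and 14.2 CPM in WT and 48.8 and 38.3 CPM in Tg (1.36, adjusted p = 0.0375). Samhd1, a dNTP hydrolase that also aids end resection, was at 279 and 319 CPM in WT and 155 and 189 CPM in Tg (-0.82, adjusted p = 0.0459). All 3 calls were lost without Tg 1 (log2 fold changes of 1.47, 1.16 and -0.69, with adjusted p of 0.306, 0.273 and 0.35) and without Tg 2 (1.90, 1.56 and -0.92, with adjusted p of 0.087, 0.0785 and 0.122). After subtraction of free RNA, Xrcc6 (1.26, adjusted p = 0.207) and Samhd1 (-0.46, adjusted p = 0.242) were not called and Nhp2 did not pass the filter. All 3 were called in the same direction in empty droplets (1.60, 1.30 and -1.16) and in alveolar type 2 nuclei (1.43, 1.54 and -0.90). In lymphatic EC nuclei Xrcc6 and Samhd1 were tested and not called, and in mesothelial nuclei Xrcc6 was called (1.76) and Nhp2 and Samhd1 were not. Nhp2 spans 3.98 kb and so belongs to the genes under 10 kb, whose median was 0.66. Xrcc6 spans 52.3 kb, among the genes of 50 kb or more (median -0.31). Samhd1 spans 37.7 kb, among those of 10 to 50 kb (0.08). The part of gene span in these calls was not tested.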

How the data were processed

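Single-nucleus 10x libraries of 4 mouse lungs were measured. The authors aligned reads to mm10 with Cell Ranger 6.1.1 (the headers of the matrices name version 4), counting introns, and deposited unfiltered UMI counts of 32285 genes per barcode. The ambient RNA removal, filters and clusters of the authors are not part of these files.

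Groups were taken from the labels. The 10 genes, the lists and the tests were chosen with earlier results of these data known. Barcodes with at least 1500 UMIs were named for the class whose markers most exceeded the free RNA share (Poisson -log10 p of at least 4, 2 markers detected). Those that also scored 3 or more for another lineage (10.6 to 13.3% of scored barcodes), taken as possible doublets, were left out. No doublet caller was run. UMIs were summed per mouse and class with at least 20 nuclei in every mouse.

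Genes were filtered with edgeR's filterByExpr (minimum count of 10), scaled by TMM and tested with glmQLFTest (edgeR 4.0.16, R 4.3.3) on all genes, with Benjamini-Hochberg adjustment and a threshold of 0.05. Contrasts between classes and with empty droplets, and the interaction, had mouse as a term. DESeq2 1.42.0, other UMI limits, no filter, subtraction of free RNA, a replicate block and leaving out each mouse were alternatives. In blood EC nuclei each mouse had 1834453 to 6263967 UMIs. Shares were compared by exact permutation. Named genes were the 10 members, listed pathway genes past the threshold in blood EC nuclei, and 3 most alike genes per member, of which 1 is not reported here. The fits were tested on simulated counts, where 10.1% of calls at 4-fold changes were false in the blood EC comparison. Annotation was GENCODE M21 and promoters were from RefSeq, in which both genes looked up were found. The gene for telomerase RNA was not analysed here.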

Additional observations from a re-analysis of the deposited data

How the results depend on the processing

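With 2 mice per genotype, counts over all genes depended on single mice, and the causes were not tested. Genes called between genotypes in blood EC nuclei numbered 924, and 0 to 2556 with a mouse left out. They were 0 without Tg 1 by edgeR, with 1554 at an unadjusted p under 0.05, and 357 without Tg 2, 1562 without WT 1 and 2556 without WT 2. With low genes kept they were 2576, and after subtraction of free RNA 25. In the other classes 7570 calls became 2353 without Tg 1 and 13174 without WT 2, and in empty droplets 3883 became 0 to 4802 (0 without Tg 1, with 3232 at an unadjusted p under 0.05, and 814 without Tg 2). Replicate numbers are shared by the genotypes but pair nothing in the labels. With the replicate block the calls were 1706 in blood EC nuclei and 14871 in the other classes, none of them a member, and same-numbered mice deviated together with r = 0.136 over 13959 genes.

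Of the 10 genes, 0 were called in blood EC nuclei under each alternative that could be fitted, except that Acd was called without WT 2 and with low genes kept. DESeq2 gave no adjusted p for Tert. Of the 3 listed pathway genes called, a check added later, 2 were not called in nuclei of at least 2500 UMIs (Nhp2, adjusted p = 0.0619, and Samhd1, 0.062). Log2 fold changes near 0 changed sign. Over all barcodes of a library, which was added with results in view, they were -0.40 for Ctc1, 0.029 for Tert and -0.11 for Tinf2. With nuclei of 2 lineages kept they were -0.15 for Ctc1 and 0.012 for Rtel1. After subtraction of free RNA they were 0.029 for Pot1a, 0.011 for Pot1b, 0.064 for Terf2 and 0.086 for Terf2ip. Pot1b was also at 0.028 with low genes kept, 0.083 in nuclei of at least 2500 UMIs and 0.0041 with the replicate block. With a mouse left out, the values in blood EC nuclei ran from -0.00061 to 0.098 for Ctc1, -0.16 to 0.18 for Pot1b, -0.41 to 0.40 for Rtel1, -0.11 to 0.028 for Terf2 and -0.12 to 0.49 for Tinf2. In empty droplets, where leaving out mice was likewise added later, they ran from -0.44 to 0.10 for Ctc1, -0.15 to 0.23 for Terf2ip, -0.37 to 0.59 for Tert and -0.47 to 0.041 for Tinf2.

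Against barcodes of 100 to 300 UMIs, in which each member had 0 to 3 UMIs per mouse, 1 of 112 tests of a member was called, where 62 of 140 were against the main droplets. These barcodes held 18999 to 20456 UMIs per mouse, against 1949156 to 12600100 in the main droplets. The share called over all genes against them was not counted. There the difference of Terf2ip became 0.0099 in B nuclei, 0.33 in T and NK nuclei, 0.34 in blood EC nuclei, 0.16 in ciliated nuclei and 0.059 in lymphatic EC nuclei. Without thinning, the shares of 1 member (Acd) in place of 3 did not overlap between the genotypes. For shares this was not counted over all genes, and in CPM 58.9% of genes in blood EC nuclei did not overlap. Between classes, 53 of 68 values with a mouse left out stayed past the threshold and none changed direction. In nuclei of at least 2500 UMIs 3 of the 17 calls were lost (Terf1 in T and NK, Pot1a in fibroblast and Terf2 in mesothelial nuclei). Depth limits Acd and Tert most, with 87 and 42 UMIs in all blood EC nuclei.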

Other observations

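Blood EC-like nuclei could be divided further by capillary, arterial and venous markers. In general capillary-like nuclei Terf1 was at 81.8 and 76.1 CPM in WT 1 and WT 2 and at 61.7 and 63.3 CPM in Tg 1 and Tg 2, so that both Tg mice lay below both WT mice. Terf2 was at 43.8 and 46.4 CPM in WT and at 44.6 and 53.1 CPM in Tg, which overlapped. In venous-like nuclei Terf1 overlapped as well, at 56.1 and 73.0 CPM in WT and 60.9 and 84.0 CPM in Tg, on 21 to 46 UMIs per mouse. In aerocyte-like nuclei Terf1 was at 15.6 and 38.3 CPM in WT and 79.8 and 108 CPM in Tg, on 1, 2, 9 and 12 UMIs. The differences within these subclasses were not tested.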
